A study of Mus musculus with 21 samples.

Results

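Kcnq1ot1 is a long noncoding RNA of the imprinted region on distal mouse chromosome 7, which also holds the insulin gene Ins2. The 8 genes described here were Kcnq1ot1, 6 genes near it (Kcnq1, Cdkn1c, Slc22a18, Phlda2, Cd81 and Tssc4) and H19, out of 25239 genes in each deposited table. They were listed by name, and all 8 were in both tables. The set was chosen by measured values of these libraries, since Kcnq1ot1 was higher in Ins2 choroid plexus and lower in Ins2 hypothalamus. Those differences of Kcnq1ot1 are therefore a description with no test.

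Poly(A) RNA was sequenced in bulk from choroid plexus, whose epithelium secretes cerebrospinal fluid, and from hypothalamus. The mice were wild-type C57BL/6J, and those of the Ins2 groups overexpressed Ins2 in the choroid plexus. Choroid plexus gave 6 Ins2 and 5 control libraries, and hypothalamus gave 5 Ins2 and 5 control libraries. Controls are labelled as untreated, although in hypothalamus the names of their columns begin with GFP. The labels do not say how Ins2 was introduced, in which cells its vector or promoter was active, or how old the mice were. Whether each replicate was a mouse of its own is also not stated. The p-values then cover only the spread among these libraries, which may be technical.

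Reads counted on genes, as recovered from the scaled values, numbered 25.95 to 36.3 M a library (M, 1e+06) in choroid plexus and 27.4 to 62.1 M in hypothalamus. Ins2 was 1.90-fold higher in Ins2 choroid plexus (95% interval 1.59 to 2.27, limma adjusted p = 0.0059), with 598 to 1041 scaled reads in the 6 Ins2 libraries, against 387 to 501 in the 5 controls. In hypothalamus Ins2 had 5 reads in Ins2 replicate 4 and 0 in the 9 other libraries. Summed markers of 9 cell types overlapped between the groups in both tissues, and 0 of 59 markers in choroid plexus and 0 of 63 in hypothalamus passed the test. Over all genes tested, limma called 2 of 14533 (0.0138%) in choroid plexus and 0 of 16363 in hypothalamus. The marker counts therefore cannot show that cell composition was equal. Markers of choroid plexus epithelium summed to 3411018 to 4134999 scaled reads in Ins2 choroid plexus, against 3558703 to 3961114 in controls. Choroid plexus control 2 stood apart, with 53238 scaled reads of oligodendrocyte markers, against 2342 to 5736 in the other libraries of that tissue, and 10792 of astrocyte markers, against 3142 to 5271. In choroid plexus 7 of 7 astrocyte markers (median log2 fold change -0.56), 6 of 6 endothelial markers (-0.18) and 4 of 5 ependymal markers (-0.34) were below 0, and 5 of 7 macrophage markers (median 0.27) were above 0. Without control 2, an alternative chosen after seeing the data, 6 of 7 astrocyte markers (median -0.10) and 6 of 6 endothelial markers (-0.17) were below 0. So were 4 of 5 ependymal markers (-0.36), while 6 of 7 macrophage markers (0.35) were above 0. Above 0 were also 6 of 7 oligodendrocyte markers (median 0.93), against 2 of 7 (-0.19) with control 2. The part of these cells in the results below was not tested. Fewer cells of a type and less RNA per cell cannot be told apart in bulk tissue.

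Imprinted genes are expressed mainly from the allele of 1 parent. Kcnq1ot1 is transcribed from the paternal allele, antisense to Kcnq1 and starting inside it, from a promoter that is methylated on the maternal allele. Its transcription silences neighbouring genes in cis, several of them only in placenta, and recruits Polycomb and the histone methyltransferase G9a. Its targets, among them the cell cycle inhibitor Cdkn1c, are therefore expressed mainly from the maternal allele. H19 and Igf2 belong to a neighbouring imprinted domain with its own control region, and Igf2 is known to escape imprinting in choroid plexus. The mice were of 1 inbred strain, so the 2 alleles were not told apart here.

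In GRCm38 (GENCODE M21), Kcnq1ot1 spans chr7:143203458-143296549 on the minus strand as 1 exon of 93.1 kb, and 100% of it lies inside Kcnq1, which spans chr7:143106362-143427042 on the plus strand. The 2 genes share 121 exon bases, 0.13% of Kcnq1ot1 and 2.96% of Kcnq1. Cdkn1c (chr7:143458339-143461050, minus), Slc22a18 (chr7:143473736-143499334, plus) and Phlda2 (chr7:143501545-143503150, minus) lie on 1 side of it, and Tssc4 (chr7:143069249-143071093, plus) and Cd81 (chr7:143052739-143067934, plus) on the other. Their starts lie 165, 177 and 207 kb from the start of Kcnq1ot1 on the first side and 227 and 244 kb on the second. Ins2 (chr7:142678656-142743381, minus) starts 553 kb away by its outermost annotated start, and H19 (chr7:142575529-142578143, minus) 718 kb away, both beyond Cd81. The strand setting of the counting is not known. If strand was not used, reads from unspliced Kcnq1 RNA within Kcnq1ot1 were counted for Kcnq1ot1, so its values below cannot be told apart from such reads. Its counted span was 93.1 kb if it was that of GENCODE M21, and 83.4 kb if that of RefSeq. Genes that share exon bases with a gene on the other strand are uncertain too, and the share was 30.7% of Cdkn1c (with Gm44732), 11.9% of Tssc4 (with Trpm5), 5.73% of H19 and 3.61% of Cd81. These shares are by GENCODE M21, which need not be the annotation that the reads were counted on.

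The promoter of Kcnq1ot1 is shown because its expressed allele starts there and because CCAAT boxes, which bind the factor NF-Y, are known in it. The sequence is from RefSeq (GRCm38.p6, chr7:143296498-143296797, minus strand), from 250 bases before the start to 50 after it, with CCAAT in capitals:
Kcnq1ot1: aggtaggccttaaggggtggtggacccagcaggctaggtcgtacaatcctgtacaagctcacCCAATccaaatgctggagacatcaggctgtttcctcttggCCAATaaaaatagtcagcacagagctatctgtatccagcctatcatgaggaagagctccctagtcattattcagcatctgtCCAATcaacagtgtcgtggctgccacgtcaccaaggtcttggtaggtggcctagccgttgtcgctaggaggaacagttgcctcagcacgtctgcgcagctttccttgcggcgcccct
The 3 CCAAT motifs were on the strand of transcription, 188, 148 and 67 bases before the start. Of 32851 RefSeq promoters of the same length, 37.4% held at least 1 CCAAT on either strand and 3.37% at least 3. Among the 5 of 8 genes with a promoter in the table, Phlda2 and Tssc4 held 1 each, and Cd81 and Slc22a18 held 0. A match is a description of the sequence and not a binding site.

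Kcnq1ot1 was higher in Ins2 choroid plexus. It had 1467, 1615, 1411, 1170, 963 and 1057 scaled reads in the 6 Ins2 libraries, against 856, 846, 769, 1034 and 759 in the 5 controls. Scaled reads are gene counts divided by the size factor of the library, within 1 tissue. In Ins2 replicates 1 to 4 and 6 the value was above the highest control, and in Ins2 replicate 5 it was below control 4, so the groups overlapped in that library. The means were 1280 ± 256 in Ins2 libraries (SD, n = 6) and 853 ± 110 in controls (SD, n = 5), a log2 fold change of 0.57 (SE 0.12) or 1.49-fold. Leaving out 1 library at a time gave 0.50 to 0.65, and leaving out control 2 gave 0.57.

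In hypothalamus Kcnq1ot1 was lower in Ins2 libraries on average, with more spread among controls. It had 798, 814, 801, 704 and 736 scaled reads in Ins2 libraries, against 1148, 1078, 655, 930 and 843 in controls 1, 2, 3, 4 and 6. Control 3 was below every Ins2 library, and the other 4 controls were above every Ins2 library. The means were 770 ± 48.1 in Ins2 libraries and 931 ± 195 in controls (SD, n = 5 each), a log2 fold change of -0.25 (SE 0.11) or 0.843-fold. It was -0.37 without control 3 and -0.17 without control 1. The log2 fold change in choroid plexus minus that in hypothalamus was 0.82 (SE 0.16), a difference that the choice of the gene used.

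**Figure D1:**
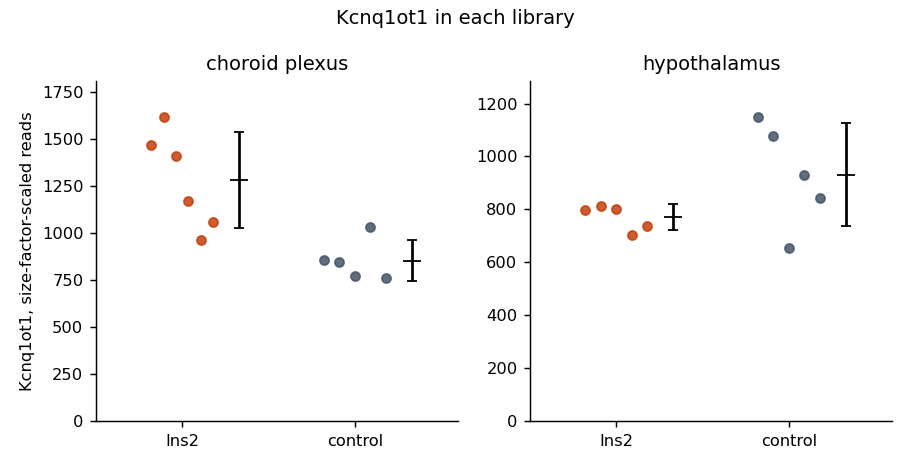
Scaled reads of Kcnq1ot1 in each library (points, y axis starting at 0), Ins2 left of control, with the mean and SD (bars). In choroid plexus 5 of 6 Ins2 libraries lie above the highest control, and in hypothalamus 4 of 5 controls lie above every Ins2 library while control 3, at 655, lies below them.

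The neighbours of Kcnq1ot1 did not pass the test in either tissue. In choroid plexus 0 of the 6 neighbours tested passed (limma, Benjamini-Hochberg adjusted p under 0.05 over 14533 genes, adjusted p from 0.645 to 0.995), where 2 genes in all passed, 0.0138% of those tested. Their median log2 fold change was 0.04, with 4 above 0 and 2 below, against a median of -0.005 over all genes tested. The 4 above 0 include Phlda2, with a mean of 12.3 scaled reads in Ins2 libraries and 7.27 in controls. It reached the mean of 10 that the test required only through its Ins2 libraries, so its direction was favoured by the filter. In hypothalamus 0 of 5 tested neighbours passed (adjusted p from 0.507 to 0.923), where limma called 0 of 16363 genes, 0.0%. There 1624 genes, 9.92%, had an unadjusted p under 0.05, while edgeR called 0 genes and DESeq2 called 21. The neighbours' median in hypothalamus was 0.06, with 3 above 0 and 2 below. Of these 5, 0 had an unadjusted p under 0.05 and 0 had groups that did not overlap, which 1.5% of all genes tested had. H19 in both tissues and Phlda2 in hypothalamus were below the mean of 10 scaled reads that the test required.

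Cdkn1c encodes p57, an inhibitor of cyclin-dependent kinases that holds cells out of the cycle, and is a known target of silencing by Kcnq1ot1. In choroid plexus it had 12244, 11882, 11725, 12694, 12038 and 12040 scaled reads in Ins2 libraries, against 11539, 10418, 10795, 10891 and 11630 in controls. Every Ins2 library was above every control, by a small margin. The means were 12104 ± 337 in Ins2 libraries (SD, n = 6) and 11054 ± 516 in controls (SD, n = 5), or 1.10-fold (95% interval 1.03 to 1.17). That difference did not pass over all genes (limma adjusted p = 0.645, from 0.21 to 0.99 over the alternatives), although the exact two-sided permutation p of this gene alone was 0.00216, the smallest that 462 splits allow. Of the 6 tested neighbours, 1 had groups that did not overlap and 1 had an unadjusted p under 0.05, both times Cdkn1c. Over all genes tested, 0.626% had groups that did not overlap, 0.234% with Ins2 higher, and 6.21% had an unadjusted p under 0.05. Without control 2 the log2 fold change of Cdkn1c was 0.11, against 0.13 with all libraries. The hypothalamus values were 286 ± 55.5 scaled reads in Ins2 libraries and 299 ± 37 in controls (SD, n = 5 each), 0.95-fold, with overlapping groups (adjusted p = 0.882).

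Kcnq1 encodes the pore subunit of a voltage-gated potassium channel, and its transcription unit surrounds Kcnq1ot1. In choroid plexus it had 46.6, 37.2, 48.3, 26.7, 38.6 and 27.3 scaled reads in Ins2 libraries, against 37.1, 37.0, 32.6, 39.6 and 31.3 in controls. The controls lay inside the range of the Ins2 libraries (1.03-fold, adjusted p = 0.989). In hypothalamus it had 35.8, 21.3, 39.4, 23.0 and 21.6 scaled reads in Ins2 libraries, against 6.71, 21.7, 13.7, 7.61 and 32.4 in controls 1, 2, 3, 4 and 6. Only 2 Ins2 libraries were above the highest control, while 3 controls were below every Ins2 library. The ratio was 1.89-fold with a 95% interval of 0.998 to 3.59 (adjusted p = 0.507), and these values rest on 6 to 40 reads a library.

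Slc22a18 encodes a transporter of the organic cation family, and Phlda2 a pleckstrin homology domain protein that limits growth of the placenta. Slc22a18 had 618 ± 59.5 scaled reads in Ins2 choroid plexus (SD, n = 6) and 604 ± 70.3 in controls (SD, n = 5), 1.02-fold (adjusted p = 0.975). The hypothalamus means were 27.7 ± 9.92 in Ins2 libraries and 24.6 ± 7.88 in controls (SD, n = 5 each), 1.10-fold (adjusted p = 0.922). Both sets of groups overlapped. Phlda2 had 6.40, 12.4, 13.2, 5.57, 20.7 and 15.8 scaled reads in Ins2 choroid plexus, against 4.12, 4.30, 5.43, 13.9 and 8.63 in controls. It passed the filter by its Ins2 libraries, and its ratio of 1.61-fold had an adjusted p of 0.895 with overlapping groups. In hypothalamus Phlda2 had 3 reads in control 4 and 0 in the other 9 libraries.

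Cd81 encodes a tetraspanin of the cell surface, and TSSC4 takes part in assembly of the U5 spliceosomal particle in human cells. Cd81 had 15975 ± 1069 scaled reads in Ins2 choroid plexus (SD, n = 6) and 15975 ± 623 in controls (SD, n = 5). Its hypothalamus means were 15842 ± 195 in Ins2 libraries and 15991 ± 286 in controls (SD, n = 5 each), 0.991-fold (adjusted p = 0.923). Tssc4 had 555 ± 47 scaled reads in Ins2 choroid plexus (SD, n = 6) and 597 ± 60.3 in controls (SD, n = 5), 0.93-fold (adjusted p = 0.901). In hypothalamus it had 1083 ± 27.5 in Ins2 libraries and 1043 ± 101 in controls (SD, n = 5 each), 1.04-fold (adjusted p = 0.80). Its groups overlapped in both tissues.

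H19, a noncoding RNA expressed from the maternal allele, was barely detected. Over the 11 choroid plexus libraries 94 reads fell on it, with a mean of 7.46 ± 5.45 scaled reads in Ins2 libraries (SD, n = 6) and 9.63 ± 5.18 in controls (SD, n = 5). The exact two-sided permutation p was 0.396. In hypothalamus 23 reads fell on it over 10 libraries, with 0 in Ins2 replicates 2 and 4 and in controls 4 and 6 (exact p = 0.683). With no read in a library, counting error alone allows a true count of up to 3. That is 0.0483 to 0.110 per M reads counted on genes at the depths of those 4 libraries.

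**Figure D2:**
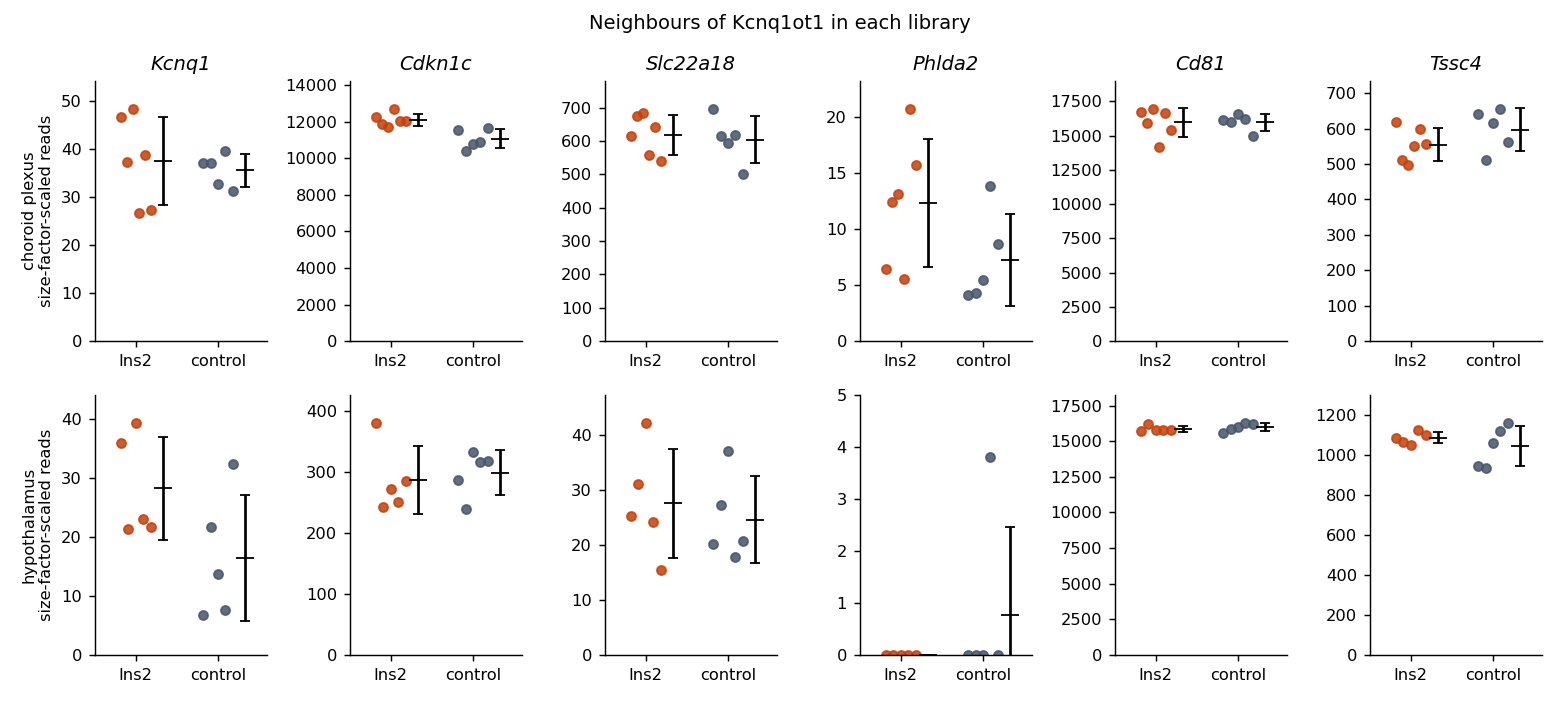
Scaled reads of 6 neighbours of Kcnq1ot1 in each library (points), choroid plexus above and hypothalamus below, Ins2 left of control, with the mean and SD (bars) and each y axis starting at 0. The 6 Ins2 libraries lie above the 5 controls for Cdkn1c in choroid plexus, from 11725 against up to 11630 scaled reads, and the groups overlap in the other panels.

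The difference between the tissues that Kcnq1ot1 was chosen for was tested for its neighbours. Of the 5 tested in both tissues, 0 had a log2 fold change that differed between choroid plexus and hypothalamus, where 15 of 13997 genes did, 0.107%. Those 13997 genes include Kcnq1ot1, which was chosen for this difference. The difference was 0.20 for Cdkn1c (95% interval -0.083 to 0.49, adjusted p = 0.64) and -0.88 for Kcnq1 (95% interval -1.92 to 0.17, adjusted p = 0.565). It was -0.16 for Tssc4, -0.10 for Slc22a18 and 0.011 for Cd81 (adjusted p from 0.637 to 0.972). The test treats the tissues as independent, which need not hold if they came from the same mice.

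Around Ins2 itself, 0 of the 5 other tested genes of the Igf2-H19 domain passed in choroid plexus. Over all genes limma called only 2 of 14533 there (0.0138%), so this count of 0 says little about these genes. How Ins2 was introduced is not stated, so its extra reads need not come from this locus. Igf2, a growth factor that choroid plexus secretes, had 139007, 132696, 137714, 125164, 144191 and 131273 scaled reads in Ins2 libraries, against 133425, 144353, 147168, 150206 and 145104 in controls. The means were 135008 ± 6691 in Ins2 libraries (SD, n = 6) and 144051 ± 6358 in controls (SD, n = 5), 0.937-fold (limma adjusted p = 0.86, exact two-sided permutation p = 0.0455), and the groups overlapped. In hypothalamus Igf2 had 3301, 786, 707, 689 and 1724 scaled reads in Ins2 libraries, against 733, 740, 960, 902 and 685 in controls (adjusted p = 0.547). Ins2 replicate 1 held the highest Igf2, the highest Cdkn1c (381 scaled reads) and the highest sum of fibroblast and meningeal markers (5700, against 3274 to 5113 in the other libraries) of that tissue. The part of those cells in the values was not tested.

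**Figure D3:**
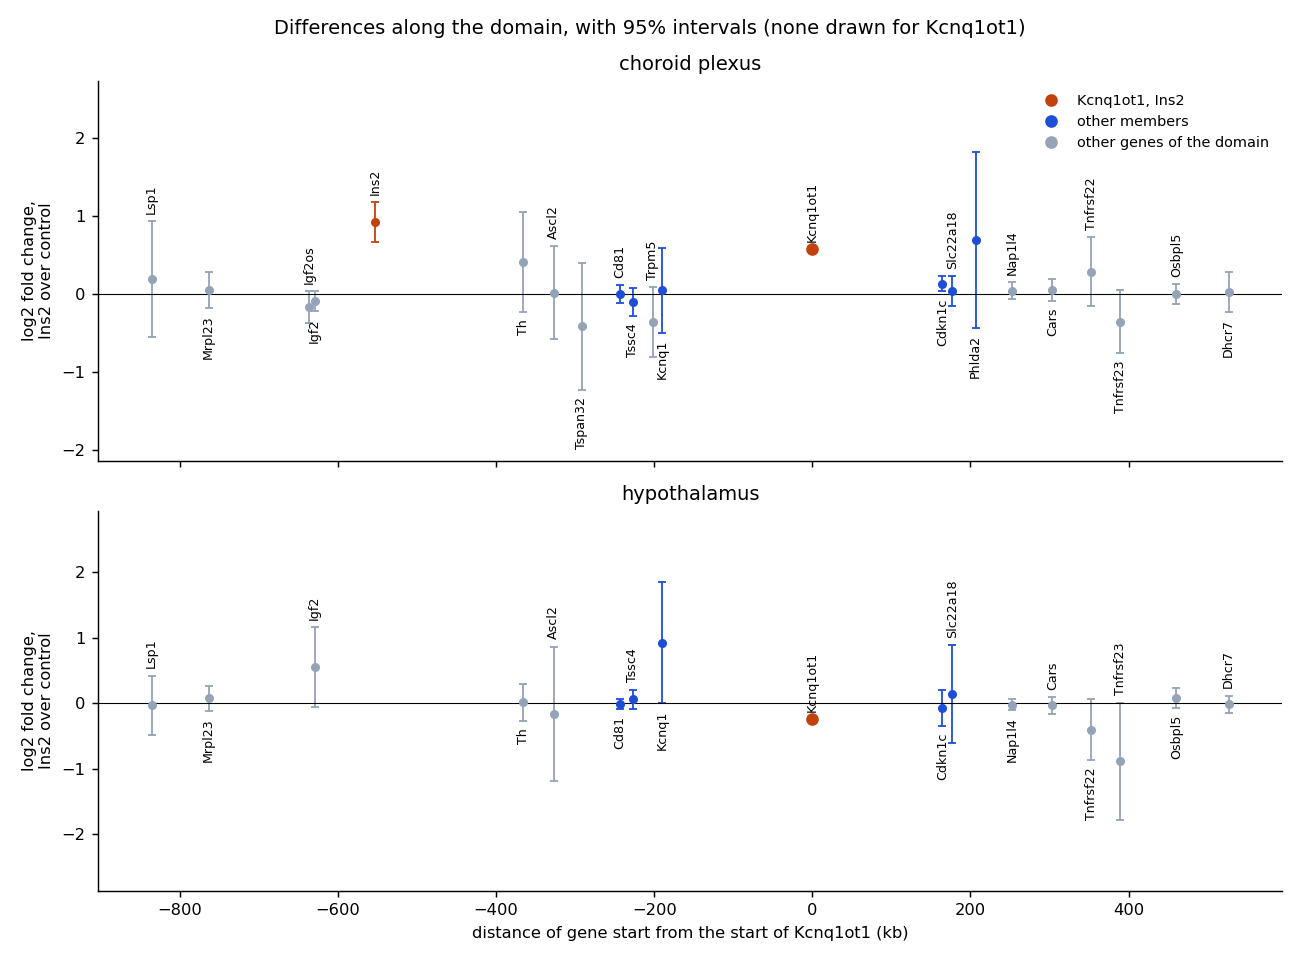
Log2 fold change, Ins2 over control, of each tested gene of the region (y axis) against the distance of its start from the start of Kcnq1ot1 in kb (x axis), with choroid plexus above and hypothalamus below and 95% intervals from limma except for Kcnq1ot1. In choroid plexus Ins2 (0.92) and Kcnq1ot1 (0.57) lie above 0 while the genes between them, from Th to Kcnq1, have intervals that include 0. Cdkn1c (0.13), on the other side of Kcnq1ot1, has an interval of 0.036 to 0.227. Ins2 is drawn at its own locus, although its overexpressed reads need not come from there.

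The wider lists held no gene past the test other than Ins2. Over all genes tested, limma called 2 of 14533 in choroid plexus and 0 of 16363 in hypothalamus, and 48.4% and 50.3% were above 0. In the list of 17 genes of the Kcnq1ot1 domain, 0 of the 15 tested beside Kcnq1ot1 passed in choroid plexus (9 above 0, 6 below, median log2 fold change 0.03), and 0 of 12 in hypothalamus (4 above, 8 below, median -0.02). The 9 above 0 in choroid plexus include Phlda2, which passed the filter only through its Ins2 libraries. Tnfrsf23, a decoy receptor for TRAIL, had 29.7 ± 16 scaled reads in Ins2 hypothalamus and 51.3 ± 22.8 in controls (SD, n = 5 each, 0.541-fold, adjusted p = 0.507), and 0.78-fold in choroid plexus (adjusted p = 0.823). Of 17 genes of the silencing machinery 0 passed in either tissue, with medians of -0.009 in choroid plexus and -0.01 in hypothalamus. The list includes genes of Polycomb proteins, histone and DNA methyltransferases and RNA-binding proteins, and also Ctcf, Zfp57, Trim28 and Uhrf1. Among 11 tested partners of p57 and growth arrest genes in choroid plexus 0 passed, including the cyclin gene Ccnd2 (0.885-fold) and Rb1 (1.15-fold), both with an adjusted p of 0.788.

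Among 34 imprinted genes elsewhere in the genome, 0 passed in choroid plexus (14 above 0, 20 below), and 0 of 39 passed in hypothalamus (10 above, 29 below). Of all genes tested, 48.4% were above 0 in choroid plexus and 50.3% in hypothalamus. An unadjusted limma p under 0.05 was found for 2 of the 34 and 4 of the 39, against 6.21% and 9.92% of all genes. The direction of the list was not tested. Airn, the antisense RNA that silences Igf2r on the paternal allele, had 49.0 ± 6.72 scaled reads in Ins2 hypothalamus and 71.2 ± 7.71 in controls (SD, n = 5 each, 0.691-fold, adjusted p = 0.428). In choroid plexus it had 23.0 ± 5.61 in Ins2 libraries (SD, n = 6) and 18.8 ± 3.80 in controls (SD, n = 5, 1.20-fold, adjusted p = 0.937). Igf2r, which clears IGF2, had 0.871-fold in Ins2 choroid plexus (adjusted p = 0.514). Nnat and Peg3 had 0.649-fold and 0.912-fold there (adjusted p = 0.793 and 0.835).

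Other noncoding RNAs were examined because Kcnq1ot1 is a long nuclear RNA. Of these, 0 of 13 tested passed in choroid plexus and 0 of 16 in hypothalamus. An unadjusted limma p under 0.05 was found for 3 of the 13 and 4 of the 16, against 6.21% and 9.92% of all genes tested. Meg3, Rian, Mirg, Airn and Peg13 are also in the list of imprinted genes elsewhere, so the counts of these lists are not independent. Malat1, an abundant nuclear RNA, had 54874 ± 5826 scaled reads in Ins2 choroid plexus (SD, n = 6) and 45827 ± 5332 in controls (SD, n = 5), 1.20-fold (adjusted p = 0.582). Its hypothalamus means were 11714 ± 1384 in Ins2 libraries and 10013 ± 686 in controls (SD, n = 5 each), 1.17-fold (adjusted p = 0.326). Dancr, a small nucleolar RNA host gene, had 125 ± 24.5 scaled reads in Ins2 choroid plexus (SD, n = 6) and 73.5 ± 13.2 in controls (SD, n = 5), 1.69-fold (adjusted p = 0.385). The part of RNA quality in these values was not tested.

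Whether the neighbours moved with Kcnq1ot1 from library to library was asked after subtracting the group means, so that the difference between the groups did not enter. Of 11 relations in both tissues, 0 passed after adjustment (permutation adjusted p from 0.737 for Pearson's r and from 0.227 for Spearman's rho). In choroid plexus the relation furthest from 0 by Pearson's r was that of Kcnq1, with r = 0.57 (permutation p = 0.16, adjusted 0.737) over 11 libraries. Its rho was 0.49 (permutation p = 0.195, adjusted 0.538). Without Ins2 replicates 2 and 5, those farthest from the median of Kcnq1ot1, r was 0.86. The part of reads counted without regard to strand in this relation was not tested. By Spearman's rho the relation furthest from 0 in choroid plexus was that of Slc22a18, with rho = 0.52 (permutation p = 0.119, adjusted 0.538). Its r was 0.49 (permutation p = 0.129, adjusted 0.737). Cdkn1c had r = -0.23 in choroid plexus (permutation p = 0.461) and -0.36 in hypothalamus (permutation p = 0.268).

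In hypothalamus the relation furthest from 0 was that of Tssc4, with r = -0.63 (permutation p = 0.212, adjusted 0.737) and rho = -0.83 (permutation p = 0.0206, adjusted 0.227) over 10 libraries. It was -0.89 within the 5 Ins2 libraries and -0.61 within the 5 controls. Without controls 1 and 3, those farthest from the median, r was -0.82. Leaving out control 3 alone gave r = -0.93 over 9 libraries (permutation adjusted p = 0.0401), so this result passed or missed the threshold by 1 library. Tssc4 had 1050 to 1121 scaled reads in the Ins2 libraries, against 944 and 935 in controls 1 and 2, the highest in Kcnq1ot1, and 1059 to 1160 in the other controls.

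**Figure D4:**
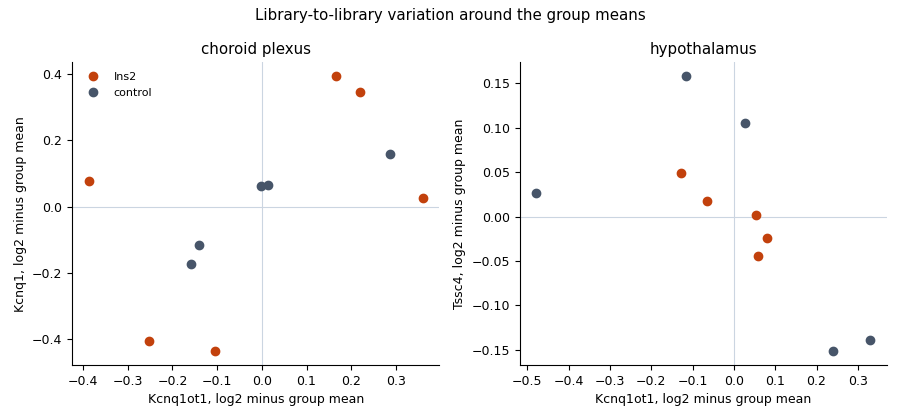
Log2 scaled reads of Kcnq1 in choroid plexus (left, y axis) and of Tssc4 in hypothalamus (right, y axis) against those of Kcnq1ot1 (x axis), each minus the mean of its group, with 1 point a library. These were the relations furthest from 0 by Pearson's r in each tissue, with r of 0.57 over 11 libraries and -0.63 over 10.

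The same question for Ins2 in choroid plexus, chosen after the data were seen, gave 0 of 7 relations past adjustment. Phlda2 came nearest, with r = 0.74 (permutation p = 0.0159, adjusted 0.112) and rho = 0.77 (permutation p = 0.0137, adjusted 0.0956) over 11 libraries, and r was 0.52 without Ins2 replicates 1 and 4. Phlda2 entered this test only through its Ins2 libraries, with a mean of 10.03 scaled reads against the 10 required, and rests on 4 to 22 reads a library. Kcnq1ot1 itself had r = -0.41 with Ins2 (permutation p = 0.297, adjusted 0.754) and rho = -0.59 (permutation p = 0.0945, adjusted 0.331). The Ins2 replicate with the highest Ins2, replicate 5 with 1041 scaled reads, had the lowest Kcnq1ot1 of that group.

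The genes whose group-centred values followed Kcnq1ot1 most closely were not members of the domain. In choroid plexus they were Trmu (r = 0.916), a tRNA-modifying enzyme of mitochondria, Amigo3 (0.902), Efcab12 (0.897), Qsox2 (0.879) and Gm4876 (0.874) over 11 libraries. In hypothalamus they were Rgs17 (0.974), a regulator of G protein signalling, Trim2 (0.965), Ttll7 (0.961), Arhgap20 (0.959) and Prkcb (0.953) over 10 libraries. The genes with the highest smaller r of both tissues were Lclat1 (0.862 in choroid plexus, 0.806 in hypothalamus), Naa16 (0.809, 0.768), Rnf24 (0.749, 0.801), Agpat5 (0.730, 0.810) and Zfp207 (0.723, 0.712). They were picked as the highest of all genes tested. An r over 0.8 was found for 0.282% of genes in choroid plexus and for 0.96% in hypothalamus.

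Set per kb of GENCODE M21 exon, a rough way to compare different genes within a tissue, Kcnq1ot1 was low. Its divisor was the whole 93.1 kb span, taken as evenly covered, where RefSeq gives 83.4 kb. As a share of all reads counted on genes in choroid plexus, Kcnq1ot1 took 25.4 to 53.8 per M. Slc22a18 took 16.7 to 23.6 and Tssc4 16.7 to 22.2, while Cdkn1c (347 to 439) and Cd81 (490 to 571) took more. In choroid plexus Cdkn1c had 5702 ± 334 scaled reads per kb and Cd81 5549 ± 296 (SD over 11 libraries), which overlapped each other. They were followed by Slc22a18 with 360 ± 36.3 and Tssc4 with 311 ± 29.9, which overlapped. Kcnq1ot1 had 11.7 ± 3.18, Phlda2 8.95 ± 4.9 and Kcnq1 8.94 ± 1.69, which also overlapped, and H19 had 3.43 ± 2.11.

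In hypothalamus the order was Cd81 with 5528 ± 84.7 scaled reads per kb (SD over 10 libraries), Tssc4 with 576 ± 39.6 and Cdkn1c with 143 ± 22.1, each apart from the next. Slc22a18 with 15.4 ± 5.06, Kcnq1ot1 with 9.14 ± 1.70, Kcnq1 with 5.45 ± 2.72, H19 with 0.905 ± 1.03 and Phlda2 with 0.34 ± 1.07 each overlapped the next. The 2 tables were scaled apart, so the shares of all reads counted on genes are given side by side and not tested. Cdkn1c took 347 to 439 reads per M in choroid plexus and 6.78 to 10.7 in hypothalamus, and Kcnq1ot1 took 25.4 to 53.8 in choroid plexus and 18.6 to 32.6 in hypothalamus.

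**Figure D5:**
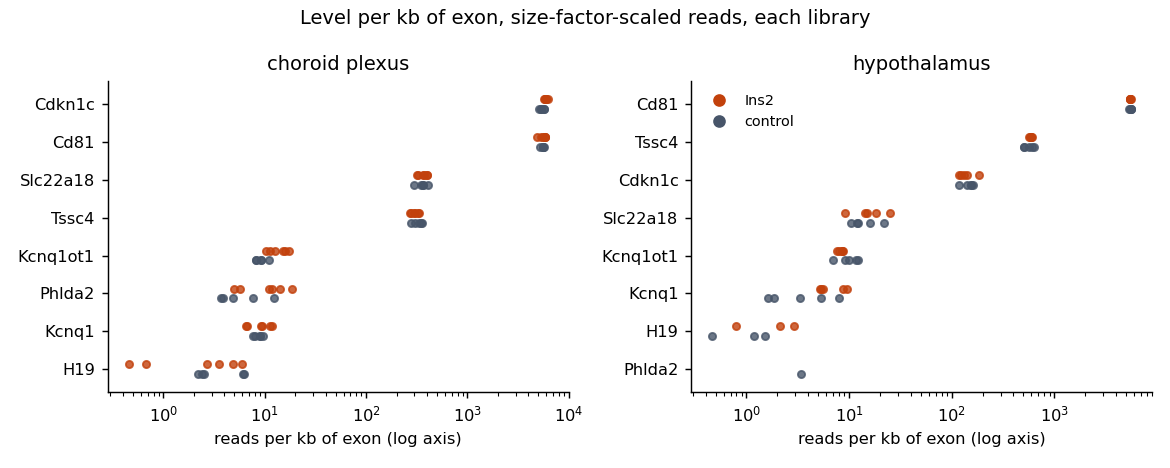
Scaled reads per kb of exon (log x axis) of the 8 genes (rows) in each library, Ins2 above control in each row, choroid plexus and hypothalamus in panels of their own, with libraries at 0 left out because the axis is logarithmic. Cdkn1c and Cd81 lie highest in choroid plexus, at 5702 and 5549 on average, and Kcnq1ot1 lies near 11.7 there and 9.14 in hypothalamus.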

How the data were processed

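RNA came from a PicoPure kit and poly(A) libraries were strand-marked with dUTP, per the labels' protocols. Reads were aligned with HISAT2, counted with featureCounts and scaled with DESeq2 on GRCm38 (mm10), per the submitters' processing notes, and neither versions nor the strand setting of the counting were given. Each deposited signal value is a count that the authors divided by a DESeq2 size factor, with 1 table a tissue. Multiples of 1 step gave whole reads, within 0.02, for 100% of values. No library pair of a group was alike enough to be 1 library (lowest chi-square per gene 7.05 in choroid plexus and 5.55 in hypothalamus).

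The test was limma 3.58.1 (R 4.3.3), with trend, on log2(value + 1) for genes with a mean of at least 10, Benjamini-Hochberg adjusted, two-sided. Fold changes on that scale understate those of low genes. edgeR 4.0.16 and DESeq2 1.42.0 were run on recovered reads as alternatives. Relations used 100000 permutations within groups, and 20000 in the alternatives, among them those with 1 library left out. Python was 3.11.15. The scripts were tested on simulated data.

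The members and lists were chosen with earlier results of these data known. Named were all members, Ins2, each list's genes past the test and otherwise at most 4 with the smallest p, of which the text gives some, and the 5 genes most like Kcnq1ot1 per tissue and over both. Libraries of the same replicate number showed little likeness (correlation of same-numbered deviations -0.148 to 0.14 in choroid plexus, -0.0699 to 0.00886 in hypothalamus), so the main test used no pairs.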

Additional observations from a re-analysis of the deposited data

Results flagged for a closer look

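Values that stood apart within a group of 5 or 6 libraries were sought by the gap between the highest or lowest library and its neighbour as a share of the group's range. Of 38 groups examined 3 had such a library. Chance gives about 1 in 20, a rate that does not apply to Ins2 and Phlda2 below, where the other libraries were all at 0 and any read would stand apart. Cd81 had 16186 scaled reads in Ins2 replicate 2 of hypothalamus, against 15707 to 15780 in the other 4 Ins2 libraries. Ins2 had 5.75 scaled reads in Ins2 replicate 4 of hypothalamus and 0 in the other 4. Phlda2 had 3.81 scaled reads, which were 3 reads, in hypothalamus control 4 and 0 in the other 4.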

How the results depend on the processing

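Neighbours of Kcnq1ot1 past the threshold numbered 0 in both tissues under every alternative run, among those with an adjusted p, and so did neighbours that differed between the tissues. DESeq2 gave an adjusted p for 4 neighbours in choroid plexus (Cdkn1c, Slc22a18, Cd81 and Tssc4) and 1 in hypothalamus (Cd81), so its count of 0 says nothing of the others. The Kcnq1ot1 difference kept its direction throughout, from 0.50 to 0.65 in choroid plexus and from -0.37 to -0.17 in hypothalamus when 1 library was left out. Genes called in choroid plexus numbered 2, against 1 with a mean of at least 50, 25 with DESeq2 (4 higher, 21 lower) and 1 to 4 with 1 library left out (1 without Ins2 replicate 1 or 4 or control 4, 4 without Ins2 replicate 5). In hypothalamus 0 were called, against 21 with DESeq2 (15 higher, 6 lower) and 0 to 18 with 1 library left out (1 without control 4, 18 without control 6). Neighbours correlated with Kcnq1ot1 in hypothalamus numbered 0 to 1 with 1 library left out. The causes were not tested.

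The replicate number as a block, which drops from the estimate Ins2 replicate 6 of choroid plexus and Ins2 replicate 5 and control 6 of hypothalamus, gave 2 calls in choroid plexus and 57 in hypothalamus (50 higher, 7 lower), with Kcnq1ot1 at 0.62 and -0.26. Whether libraries were paired is not stated, and the low correlations of same-numbered libraries do not exclude it. In hypothalamus some replicate numbers differ from those of the tags in the sample titles, and a pairing by tag was not examined.

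Small log2 fold changes turned sign. Cd81 in choroid plexus was 0.019 with equal totals, 0.0062 with edgeR, 0.0081 with the block and -0.026 to 0.032 with 1 library left out. With 1 library left out, Kcnq1 ran from -0.035 to 0.13 and Slc22a18 from -0.031 to 0.088 in choroid plexus, and Slc22a18 from -0.028 to 0.32 in hypothalamus. With a mean of at least 50, Kcnq1 in both tissues, Phlda2 in choroid plexus and Slc22a18 in hypothalamus could not be tested, nor could Phlda2 without several single libraries, where its mean fell below 10. Depth limits H19, Phlda2 and Kcnq1, which rest on few reads.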
